A study of Mus musculus with 12 samples.

Results

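The triglyceride assembly enzymes of mouse liver were taken as 9 gene symbols: Gpam, Agpat2, Agpat3, Lpin1, Lpin2, Lpin3, Dgat1, Dgat2 and Mogat1. Every probe set annotated to exactly 1 of these symbols was used, which gave 14 of the 45037 probe sets that are not controls. They cover 8 of the 9 genes. Agpat2, an acyltransferase of the second step, was not analysed here. Gpam, Lpin1, Dgat1 and Dgat2 had 2 probe sets each, Lpin2 had 3, and Agpat3, Lpin3 and Mogat1 had 1 each. Values are log2 signals made with RMA, and a difference of 1 on this scale is a doubling of the signal.

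The livers came from male mice in 4 groups of 3 arrays, with 1 liver extract on each array. Pml knockout mice were kept on a high-fat diet (fat as 60% of calories) or a low-fat diet (fat as 10%), and wild-type mice on the same 2 diets. Feeding went on for 20 weeks and ended with a fast of 8 h, and 3 extracts were analysed of the 8 mice in a group. The strain, the age and the way the Pml allele was made are not given in the sources used here. All 12 extracts are thus of fasted livers, and nothing was measured in the fed state.

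Triglyceride is built in the endoplasmic reticulum and the outer mitochondrial membrane by adding fatty acids to glycerol 3-phosphate in turn. Glycerol-3-phosphate acyltransferases add the first fatty acid, acylglycerophosphate acyltransferases add the next and make phosphatidate, lipins remove its phosphate to leave diacylglycerol, and diacylglycerol acyltransferases add the last fatty acid. Monoacylglycerol acyltransferases make diacylglycerol by a second route. The liver uses the product to store fat in droplets and to load very-low-density lipoproteins. Lipins are also known to enter the nucleus, where lipin 1 acts with PPAR alpha and its coactivator in fasted liver.

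The promoters of Lpin1 and Lpin2 are shown because these genes moved together from array to array more closely than any other pair among the 6 members that entered the test of genes. The sequences are RefSeq windows of the GRCm38.p6 build, which run from 250 bases before a start site to 50 bases after it and are written 5′ to 3′ on the strand of the gene. Windows were matched for 7 of the 9 genes, 11 windows in all, and Dgat1 and Dgat2 had no entry. Capitals mark matches on either strand to the letters AGGTCA, the half-site of many nuclear receptors, to AGAACA, the half-site of steroid receptors (written TGTTCT where it lies on the other strand), and to CACGTG, the E-box.
Lpin1, chr12:16610917-16611216, minus strand: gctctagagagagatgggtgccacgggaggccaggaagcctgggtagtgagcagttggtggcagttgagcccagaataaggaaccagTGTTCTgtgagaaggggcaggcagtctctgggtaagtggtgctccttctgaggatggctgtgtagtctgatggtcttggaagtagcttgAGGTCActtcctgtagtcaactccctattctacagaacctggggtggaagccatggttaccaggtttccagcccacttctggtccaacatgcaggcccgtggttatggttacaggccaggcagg
Lpin2, chr17:71183282-71183581, plus strand: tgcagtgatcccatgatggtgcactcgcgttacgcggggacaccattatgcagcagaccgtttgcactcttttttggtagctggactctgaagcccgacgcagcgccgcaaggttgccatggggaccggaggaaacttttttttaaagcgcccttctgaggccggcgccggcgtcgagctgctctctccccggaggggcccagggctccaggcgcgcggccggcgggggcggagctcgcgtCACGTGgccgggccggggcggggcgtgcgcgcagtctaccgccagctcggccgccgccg
Counted from the start site, AGGTCA begins at -74 and the reversed AGAACA at -163 in the Lpin1 window. The Lpin2 window holds CACGTG at -9, and neither window shares a motif with the other. Of all 32851 windows, 16.3% hold AGGTCA, 19% hold AGAACA and 7.15% hold CACGTG, so each match is common. The cyclic AMP response element TGACGTCA, the spaced repeat of AGGTCA that PPAR and RXR bind, which overlaps the half-site, and the sterol element TCACNCCAC were also searched on both strands; none is in the 11 windows, and 1.79%, 0.0396% and 1.24% of all windows hold them. The Lpin1 window lies inside the gene, whose 5′ end on the minus strand is at 16653903, so it marks an internal start site. Lpin2 has other windows further into the gene, and 1 of them holds AGAACA. The single Mogat1 window, at chr1:78510810-78511109, holds none of the 6 motifs. These matches are letters in a window, and binding was not measured.

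The arrays behaved as liver. A list of 10 hepatocyte markers, 9 of them measured, averaged 12.9 to 13.13 in every array. Adipocyte markers, 5 of 8 measured, averaged 3.64 to 4.09 in the 12 arrays. Pml checked the genotype labels, with values of 3.04 to 3.82 in the 6 knockout livers and of 4.92 to 5.40 in the 6 wild-type livers. Macrophage markers, 12 of 12 measured, averaged 5.51 in knockout high-fat array 3 and 4.92 in knockout low-fat array 2, against 6.04 to 6.95 in the remaining arrays. The 12 markers of liver endothelium, all of them measured, averaged 5.61 to 5.66 in knockout high-fat arrays 2 and 3 and in knockout low-fat array 2, against 6.03 to 6.33 elsewhere. In whole liver, fewer cells of a type and less RNA per cell cannot be told apart. The labels do not say outright that each extract is a separate mouse, so p-values measure the spread between these extracts, and 3 arrays a group limit the precision.

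No member passed the test in any of 7 comparisons. Of the 8 measured genes, 6 were bright enough to enter limma's test of 10258 genes, while Lpin3 and Mogat1 lay under its filter on dim genes, whose lowest mean was 4.08. The test passed 0 of 6 members for high-fat against low-fat diet in knockout livers, where 3.03% of all genes passed, and 0 of 6 in wild-type livers, where 0.175% passed. Averaged over both genotypes, 0 of 6 members and 4.56% of all genes passed for diet. For knockout against wild type the test passed 0 of 6 members on the high-fat diet, 0 of 6 on the low-fat diet and 0 of 6 on average, against 0.00975%, 0.00975% and 0.0195% of all genes. The difference between the 2 diet effects passed for 0 of 6 members and for 0% of all genes. At an unadjusted p of 0.05, limma put 1 member past the limit for diet in wild-type livers (Agpat3), 1 for genotype on the high-fat diet (Lpin1) and 1 for the difference between diet effects (Agpat3), and 0 in the other 4 comparisons. Of all genes 8.82%, 4.46% and 5.70% were past that limit in these 3 comparisons, and 18.3% and 19.7% for diet in knockout livers and on average, where 0 members were. For genotype on the low-fat diet and on average it was 8.72% and 7.26% of all genes, also with 0 members.

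A second fit held every probe set with no filter, so that the dim genes and the second probe sets also had a value. It passed 0 of 14 member probe sets in each comparison. Of all probe sets it passed 0.502% for diet in knockout livers, 0.0666% for diet in wild-type livers and 1.02% for diet on average. For genotype it passed 0.00222% on each diet and on average, and for the difference between diet effects 0%. The smallest adjusted p of any member was that of Mogat1 for diet in knockout livers, 0.0639. At an unadjusted p of 0.05 in this fit, 4 of 14 were past the limit for genotype on the high-fat diet, against 4.68% of all probe sets. They were Mogat1, both Lpin1 probe sets and the brightest Lpin2 probe set, and probe sets of 1 gene are not independent. For diet in knockout livers it was 2 of 14 (Mogat1 and the second Dgat2 probe set) against 10.2%. For the difference between diet effects it was 2 of 14 (Mogat1 and the second Lpin1 probe set) against 5.69%. The other 4 comparisons had 0 or 1. It was 1 for diet in wild-type livers against 7.43% of all probe sets, and 1 for diet on average against 11.4%. For genotype it was 0 on the low-fat diet against 7.21%, and 1 on average against 5.97%.

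**Figure D1:**
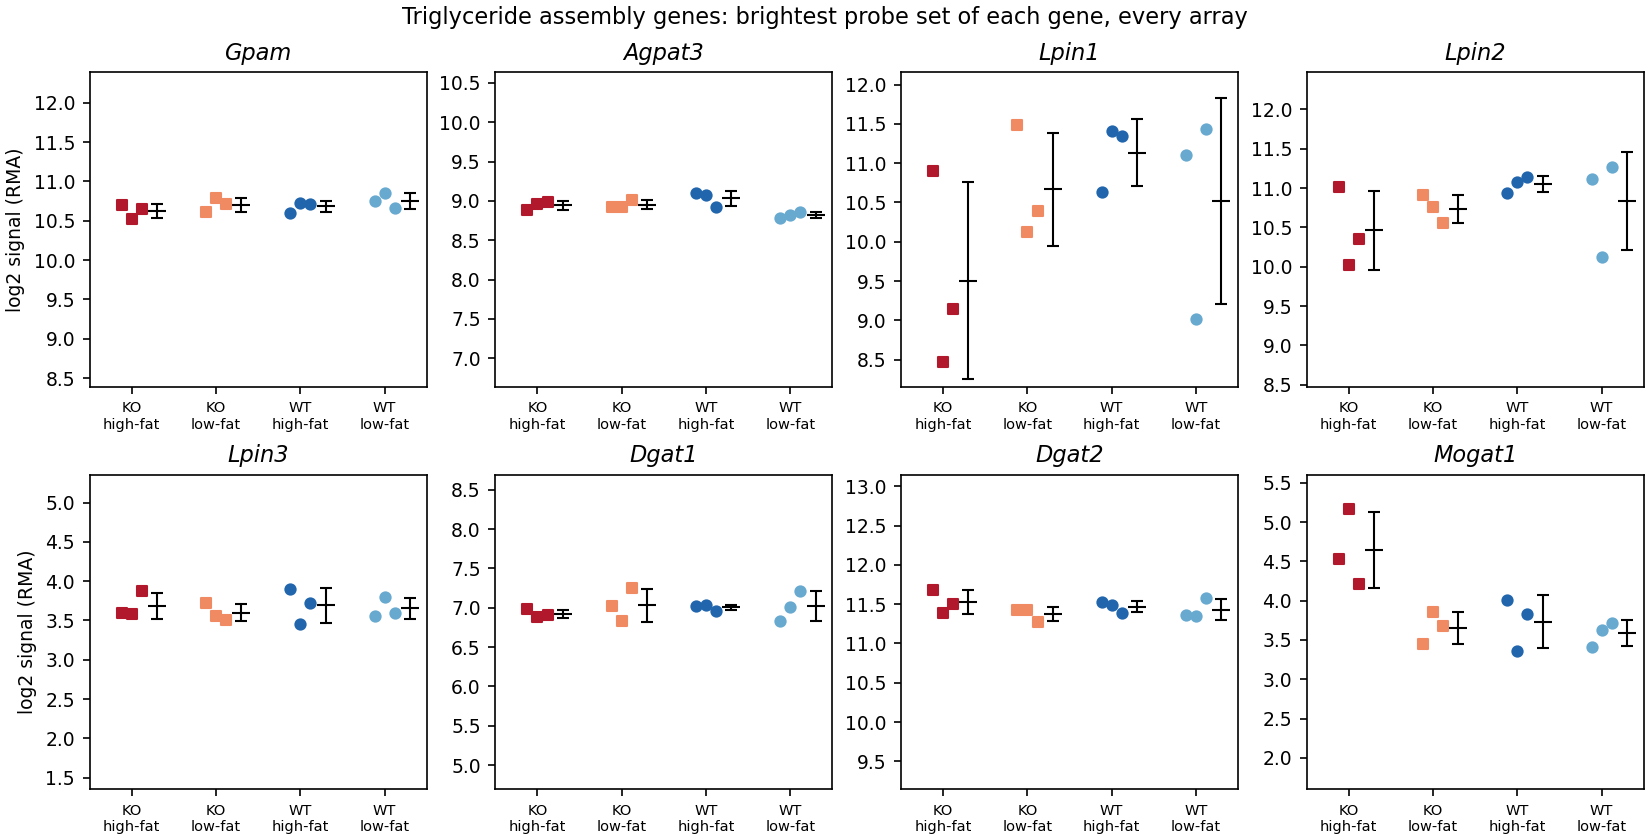
Log2 signal (RMA) of the brightest probe set of each of the 8 measured genes, 1 point per array, in knockout high-fat, knockout low-fat, wild-type high-fat and wild-type low-fat livers, with the mean ± SD of the 3 arrays beside them. Lpin1 spreads over 3.01 log2 units within and across groups, and Mogat1 is highest in the 3 knockout high-fat livers.

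The 2 probe sets of the mitochondrial enzyme of the first step gave different readings. Gpam (chromosome 19, 55067635 to 55127319 in GRCm38.p6) encodes the mitochondrial glycerol-3-phosphate acyltransferase, which hands its product to triglyceride synthesis rather than to oxidation. Its brighter probe set read 10.69, 10.52 and 10.64 in knockout high-fat livers and 10.61, 10.79 and 10.71 in knockout low-fat livers, against 10.59, 10.73 and 10.72 in wild-type high-fat livers and 10.75, 10.86 and 10.66 in wild-type low-fat livers. All 4 groups overlapped, and the whole range was 0.33 log2 units. The diet differences were -0.08 (95% interval -0.24 to 0.08) in knockout livers and -0.07 (-0.23 to 0.09) in wild-type livers.

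The dimmer Gpam probe set did not follow the brighter one. It read 7.11, 7.15 and 7.42 in knockout high-fat livers, all above the 6.85, 6.74 and 7.02 of knockout low-fat livers. In wild-type livers it read 7.15, 6.78 and 6.77 on the high-fat diet and 7.16, 7.49 and 6.43 on the low-fat diet, which overlap. The diet difference was 0.36 (SE 0.21, adjusted p = 0.626) in knockout livers, opposite in sign to that of the brighter probe set. Within groups the 2 Gpam probe sets correlated at r = 0.30 over the 12 arrays, and they do not give 1 reading of the gene.

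Its relative Gpat3 rose with the high-fat diet in knockout livers. Gpat3 encodes a glycerol-3-phosphate acyltransferase of the endoplasmic reticulum and stands in a list of 11 acyltransferases related to the members, of which 7 were tested. It read 7.80, 7.76 and 7.89 in knockout high-fat livers, against 6.85, 6.90 and 7.03 in knockout low-fat livers, and the groups do not overlap. In wild-type livers it read 7.86, 7.60 and 7.68 on the high-fat diet, against 7.22, 7.78 and 7.64 on the low-fat diet. The 3 knockout low-fat livers were the lowest of all 12, and the other 3 groups overlapped. Macrophage markers averaged 6.70, 4.92 and 6.31 in these 3 livers, and their part in the Gpat3 values was not tested. Gpat3 rose by 0.89 (SE 0.13, 1.85-fold, limma's adjusted p = 0.00506) with the high-fat diet in knockout livers, and the difference was 0.16 (SE 0.13, adjusted p = 0.799) in wild-type livers.

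The difference between these 2 diet effects was 0.73 with an adjusted p of 0.802, so Gpat3 is not shown to respond to diet more in knockout livers than in wild-type livers. It lay between 0.61 and 0.89 over 24 alternative settings and passed in 0 of them. Knockout minus wild type was -0.62 (adjusted p = 0.257) on the low-fat diet, and lay between -0.78 and -0.50 over 25 alternative settings, with 0 passing. Averaged over genotypes, Gpat3 rose by 0.53 (SE 0.09, 1.44-fold, adjusted p = 0.00842) with the high-fat diet. With knockout high-fat array 3 and knockout low-fat array 2, the arrays poorest in macrophage markers, left out, the diet difference in knockout livers was 0.84 with an adjusted p of 0.0668. Gpat4, the other endoplasmic reticulum enzyme of this step, differed by -0.08 (SE 0.12) in knockout livers and by -0.13 (SE 0.12) in wild-type livers, and did not pass.

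**Figure D2:**
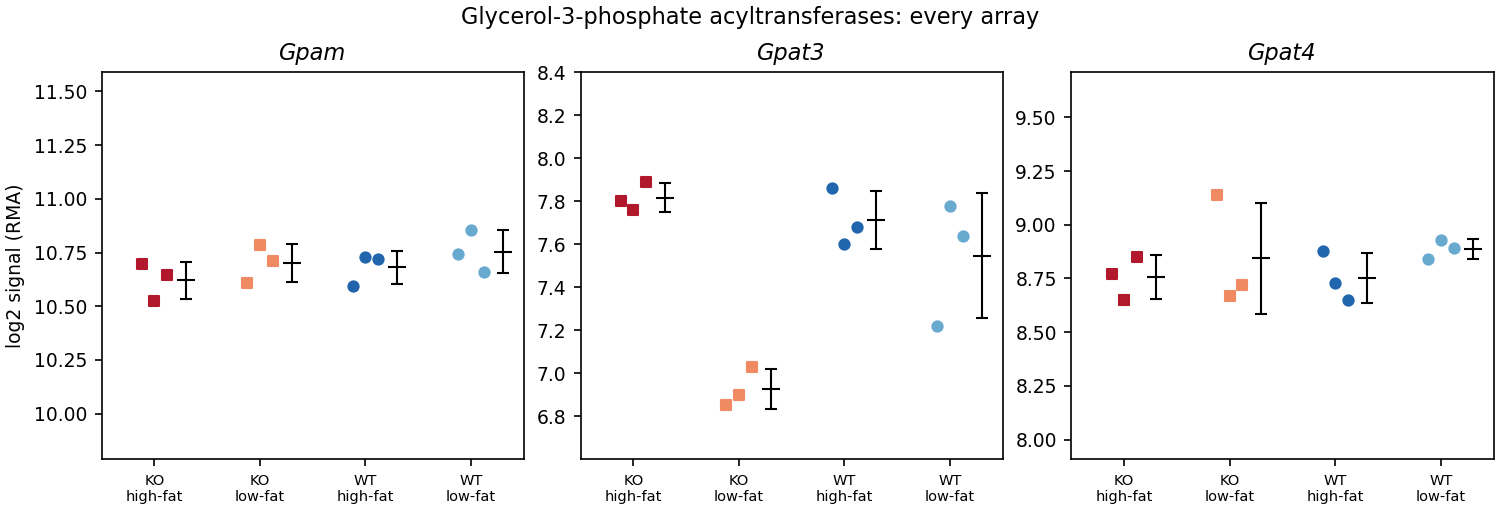
Log2 signal (RMA) of Gpam (brighter probe set), Gpat3 and Gpat4, 1 point per array, by group, with the mean ± SD of the 3 arrays. Gpat3 lies between 6.85 and 7.03 in the 3 knockout low-fat livers, under all 9 other arrays, while the brighter Gpam probe set overlaps in all 4 groups.

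Of the members at the second step, Agpat3 was measured. Agpat3 (chromosome 10, 78269174 to 78352497) encodes an acylglycerophosphate acyltransferase that adds the second fatty acid. Its signal was 8.88, 8.96 and 8.99 in knockout high-fat livers and 8.92, 8.92 and 9.02 in knockout low-fat livers, against 9.10, 9.07 and 8.93 in wild-type high-fat livers and 8.78, 8.82 and 8.86 in wild-type low-fat livers. The wild-type low-fat livers were the 3 lowest arrays of all 12 and overlapped neither the wild-type high-fat nor the knockout low-fat livers.

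The diet difference of Agpat3 in wild-type livers was 0.22 (SE 0.07, 1.16-fold), with an unadjusted p of 0.011 and an adjusted p of 0.361. In knockout livers it was -0.01 (SE 0.07, adjusted p = 0.962), and the difference between the diet effects was -0.23 (SE 0.10, adjusted p = 0.852). Groups that do not overlap were common among the 45037 probe sets, at 13.6% for diet in wild-type livers and 11.2% for genotype on the low-fat diet, and Agpat3 was the only 1 of 14 member probe sets in each. The share among members, 1 of 14, is thus no higher than the background. The related Agpat1, Agpat4 and Agpat5 differed by -0.19 (SE 0.14), 0.01 (SE 0.13) and 0.17 (SE 0.14) for diet in wild-type livers, and none of them passed.

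Lpin1 and Lpin2 varied mainly between arrays of the same group. Lpin1 (chromosome 12, 16535669 to 16653903) encodes lipin 1, a phosphatidate phosphatase known to be induced in liver by fasting and by glucocorticoids. Its brighter probe set read 10.89, 8.47 and 9.15 in knockout high-fat livers and 11.48, 10.12 and 10.40 in knockout low-fat livers. In wild-type livers it read 10.64, 11.41 and 11.35 on the high-fat diet and 11.10, 9.02 and 11.44 on the low-fat diet. The lowest and the highest arrays differ by 3.01 log2 units, or 8.08-fold. Knockout high-fat array 2, wild-type low-fat array 2 and knockout high-fat array 3 lie at 8.47 to 9.15, and the next array up lies at 10.12. The second Lpin1 probe set read 10.63, 8.12 and 8.75 in knockout high-fat livers and 11.22, 10.04 and 10.07 in knockout low-fat livers, against 10.45, 11.25 and 11.13 in wild-type high-fat livers and 10.80, 8.74 and 11.21 in wild-type low-fat livers, with the same 3 arrays lowest.

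The group means of Lpin1 were 9.50 ± 1.25 in knockout high-fat, 10.67 ± 0.72 in knockout low-fat, 11.13 ± 0.43 in wild-type high-fat and 10.52 ± 1.31 in wild-type low-fat livers (SD, n = 3 each). Ordered by their means, neighbouring groups differed by less than the SD of at least 1 of the groups. The knockout minus wild-type difference on the high-fat diet was -1.63 (SE 0.66, 95% interval -3.05 to -0.21), with an unadjusted p of 0.028 and an adjusted p of 0.996. It ranged between -2.32 without knockout high-fat array 1 and -1.11 without knockout high-fat array 2. The diet differences were -1.16 (adjusted p = 0.383) in knockout livers and 0.61 (adjusted p = 0.858) in wild-type livers, and the difference between them was -1.78 (SE 0.93, adjusted p = 0.869). Without wild-type low-fat array 2 the diet difference in wild-type livers was -0.14 and the difference between diet effects -1.03. Without knockout high-fat array 1 the diet difference in knockout livers was -1.86 and the difference between diet effects -2.47, and without knockout high-fat array 2 the diet difference in knockout livers was -0.65. In limma's probe set test the second Lpin1 probe set gave -1.78 for genotype on the high-fat diet (unadjusted p = 0.0116, adjusted p = 0.982). Its difference between diet effects was -1.98 (95% interval -3.84 to -0.11, unadjusted p = 0.0392, adjusted p = 0.864).

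The spread of Lpin1 within groups was among the largest on the arrays. Its within-group SD was 0.999, larger than that of 99.8% of the genes tested and rank 17 of 10258 from the top, where the median gene had 0.153. Lpin2 had 0.412, larger than 96.5% of genes. The other tested members were near or under the median, with 0.146 for Dgat1, 0.115 for Dgat2, 0.0884 for Gpam and 0.0644 for Agpat3. The last of these was larger than only 4.07% of genes.

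**Figure D3:**
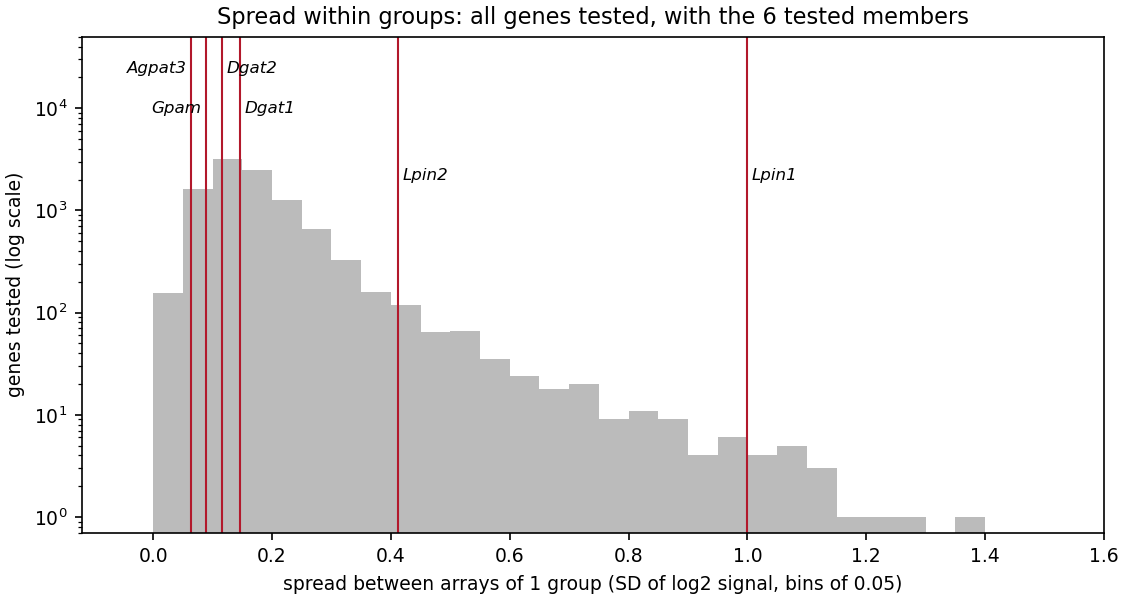
Number of the 10258 tested genes (log axis) by their SD between arrays of the same group, in log2 units and bins of 0.05, with lines at the 6 tested members. Lpin1 stands at 0.999 and Lpin2 at 0.412, right of the median of 0.153, and the other 4 members lie at or left of it.

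Lpin2 (chromosome 17, 71183532 to 71249818) encodes lipin 2, the phosphatidate phosphatase that is abundant in liver. Its brightest probe set read 11.01, 10.02 and 10.36 in knockout high-fat livers and 10.91, 10.76 and 10.55 in knockout low-fat livers, against 10.94, 11.08 and 11.15 in wild-type high-fat livers and 11.12, 10.12 and 11.27 in wild-type low-fat livers. The 3 lowest arrays were the same as for Lpin1. The second probe set read 9.91, 8.47 and 9.05 in knockout high-fat livers and 9.82, 9.10 and 9.20 in knockout low-fat livers, against 9.63, 9.64 and 9.87 in wild-type high-fat livers and 9.76, 8.87 and 10.10 in wild-type low-fat livers. Of the 5 probe sets of Lpin1 and Lpin2, 4 had these 3 arrays as their lowest, and the third Lpin2 probe set, with 7.37 to 8.40, had knockout low-fat array 3 in place of knockout high-fat array 3.

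The knockout minus wild-type difference of Lpin2 on the high-fat diet was -0.59 (SE 0.27, 95% interval -1.19 to 0.002), with an unadjusted p of 0.0505 and an adjusted p of 0.996. It lay between -0.86 and -0.37 as single arrays were left out. Its diet differences were -0.27 (adjusted p = 0.659) in knockout livers and 0.22 (adjusted p = 0.882) in wild-type livers. Without wild-type low-fat array 2 the value in wild-type livers was -0.14, and in knockout livers it was -0.55 without knockout high-fat array 1 and -0.05 without knockout high-fat array 2. In limma's probe set test, the genotype difference of the brightest Lpin2 probe set on the high-fat diet had an unadjusted p of 0.0355 (adjusted p = 0.982).

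Both lipins moved together between arrays of 1 group. After each group mean was taken off, Lpin1 and Lpin2 correlated at r = 0.95 over the 12 arrays, the closest of the 15 pairs among the 6 tested members. The 2 Lpin1 probe sets correlated at r = 0.997, and the brightest Lpin2 probe set at 0.943 and 0.931 with the other 2. Dgat2 followed at 0.648 with Lpin1 and 0.718 with Lpin2, while Gpam had -0.158 and -0.132 and Agpat3 -0.351 and -0.35. The brightest probe set stood for each gene here. In wild-type low-fat array 2, the lowest of its group for both lipins, the brighter Dgat2 probe set deviated from its group mean by -0.09. The second Dgat2 probe set deviated by 0.06 there. Its correlation with the lipins was not taken, so the Dgat2 values hold for the brighter probe set. These correlations describe the arrays and carry no p, since all genes share each array and its extract.

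A list of 12 genes known to respond to glucocorticoids, chosen after these values were seen, was set beside Lpin1 in the same way. Of its 11 tested genes, 10 correlated positively with Lpin1 within groups, with a median r of 0.828, against a median of -0.024 and 48.2% positive over 10257 genes. Zbtb16 (0.944), Per1 (0.933) and Fkbp5 (0.91) were the highest, and Klf9 (0.101) and Dusp1 (-0.106) the lowest. Zbtb16 is also among the genes nearest to Lpin1 over these same arrays. Most of the list spread more within groups than the median gene (SD 0.153), with 1.11 for Zbtb16 and 1.05 for Fkbp5, but 0.149 for Klf9. All genes are thus not a matched background for this list, and no conclusion is drawn from the contrast. Of the 11 genes, only Per1 and Errfi1 had the same 3 lowest arrays as Lpin1. Over all genes, 43 had r above 0.9 and 15 had r below -0.9. Hormone levels and the hour of collection were not measured here, and their part in the lipin values was not tested. Of the 3 arrays with low lipins, knockout high-fat arrays 2 and 3 also had low endothelial markers (5.63 and 5.61), and wild-type low-fat array 2 did not (6.25). Hepatocyte markers averaged 12.9, 12.99 and 13.02 in these 3 arrays, against 13.02 to 13.13 in the remaining arrays. The hepatocyte list shares Tat (r = 0.884 with Lpin1) with the glucocorticoid list, so the 2 lists are not independent.

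**Figure D4:**
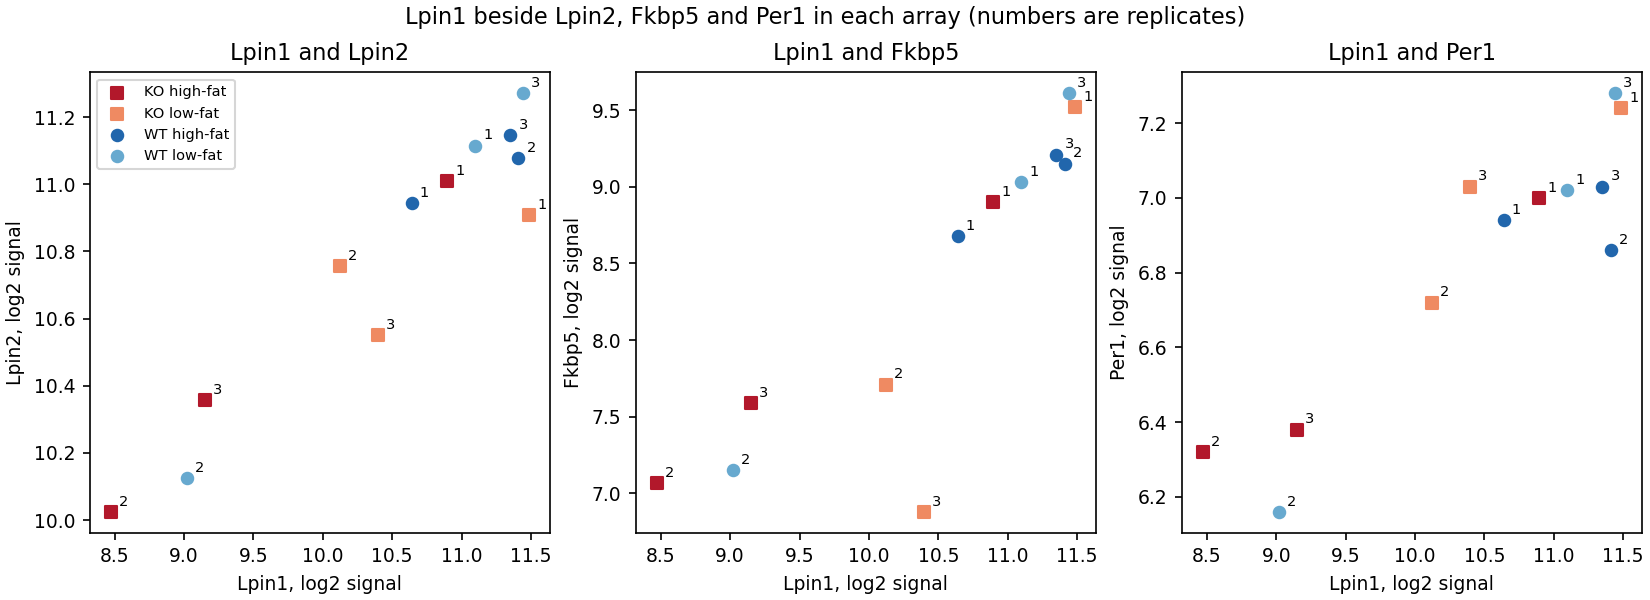
Log2 signal of Lpin1 (horizontal) against Lpin2, Fkbp5 and Per1 (vertical), 1 point per array, with the group by colour and the replicate by number. Fkbp5 (r = 0.91 with Lpin1 within groups) and Per1 (0.933) are among the highest of the glucocorticoid list. Klf9 (0.101) and Dusp1 (-0.106), the lowest of that list, are not drawn. Knockout high-fat arrays 2 and 3 and wild-type low-fat array 2 lie at the low end of Lpin1, between 8.47 and 9.15, and of Lpin2, between 10.02 and 10.36.

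Lpin3 (chromosome 2, 160880670 to 160906000), the third lipin, was dim. It read 3.60, 3.58 and 3.87 in knockout high-fat livers and 3.72, 3.56 and 3.51 in knockout low-fat livers, against 3.90, 3.45 and 3.72 in wild-type high-fat livers and 3.56, 3.80 and 3.60 in wild-type low-fat livers. All 4 groups overlapped. Its differences in the probe set test ran from -0.06 for genotype on the low-fat diet to 0.09 for diet in knockout livers.

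The last step showed small differences. Dgat2 (chromosome 7, 99153663 to 99182713) encodes the diacylglycerol acyltransferase that mainly uses newly made fatty acids in liver. Its brighter probe set read 11.68, 11.38 and 11.51 in knockout high-fat livers and 11.42, 11.43 and 11.27 in knockout low-fat livers, against 11.53, 11.49 and 11.39 in wild-type high-fat livers and 11.36, 11.35 and 11.58 in wild-type low-fat livers. The groups overlapped. The diet difference was 0.15 (SE 0.09, adjusted p = 0.384) in knockout livers and 0.04 (SE 0.09, adjusted p = 0.945) in wild-type livers. The second Dgat2 probe set gave 0.22 (SE 0.10, adjusted p = 0.485) and 0.02 (SE 0.10, adjusted p = 0.985), the same order, and correlated with the first at r = 0.746 within groups.

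Dgat1 (chromosome 15, 76502012 to 76512021), the diacylglycerol acyltransferase that also re-esterifies fatty acids from outside the cell, had 6.98, 6.88 and 6.90 in knockout high-fat livers and 7.02, 6.83 and 7.25 in knockout low-fat livers. In wild-type livers it had 7.02, 7.03 and 6.96 on the high-fat diet and 6.83, 7.02 and 7.22 on the low-fat diet. High-fat livers of both genotypes lay inside the range of the low-fat livers. The diet differences were -0.11 (95% interval -0.38 to 0.16) in knockout livers and -0.02 (-0.28 to 0.25) in wild-type livers. Its second probe set was dim, at 3.33 to 4.10.

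The bypass enzyme Mogat1 gave the clearest difference between groups among the members. Mogat1 (chromosome 1, 78511060 to 78606964) encodes a monoacylglycerol acyltransferase that is scarce in normal mouse liver and is known to be induced there in fatty liver by PPAR gamma. Its single probe set read 4.53, 5.17 and 4.22 in knockout high-fat livers, against 3.45, 3.85 and 3.67 in knockout low-fat livers. In wild-type livers it read 4.01, 3.36 and 3.83 on the high-fat diet and 3.41, 3.63 and 3.72 on the low-fat diet. All 3 knockout high-fat livers lay above the other 9 arrays, and the other 3 groups overlapped.

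The diet difference of Mogat1 in knockout livers was 0.98 on the log2 scale (SE 0.22, 95% interval 0.52 to 1.44), with an unadjusted p of 0.000398 and an adjusted p of 0.0639 in limma's probe set test, above the limit of 0.05. The knockout low-fat mean of 3.66 lies under the filter on dim genes, and no detection calls were used here, so the value is a difference of dim RMA signals and no fold of the transcript is given. In wild-type livers it was 0.14 (SE 0.22, adjusted p = 0.925). Knockout minus wild type was 0.91 (SE 0.22, adjusted p = 0.982) on the high-fat diet and 0.07 (adjusted p = 0.967) on the low-fat diet. The difference between the diet effects was 0.84 (SE 0.30), with an unadjusted p of 0.0149 and an adjusted p of 0.864, so a larger response in knockout livers is not shown.

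The call for Mogat1 in knockout livers turned on the setting. With all genes tested and no filter the adjusted p was 0.0429, and with the mean of each gene's probe sets, where Mogat1 entered the test of genes, it was 0.0481. Without knockout high-fat array 3 the difference was 1.19 with an adjusted p of 0.0421, and without knockout high-fat array 2, the highest, it was 0.72 with an adjusted p of 0.222. That array had macrophage markers of 6.54 and knockout high-fat array 3 of 5.51, and without this array and knockout low-fat array 2 the difference was 1.29 (adjusted p = 0.0618). Mogat1 and the dimmer Gpam probe set were the 2 of 14 member probe sets whose knockout groups did not overlap between diets, against 14.6% of all probe sets. Mogat1 was the only 1 of 14 on the high-fat diet whose genotypes did not overlap, against 10.8% of all probe sets.

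**Figure D5:**
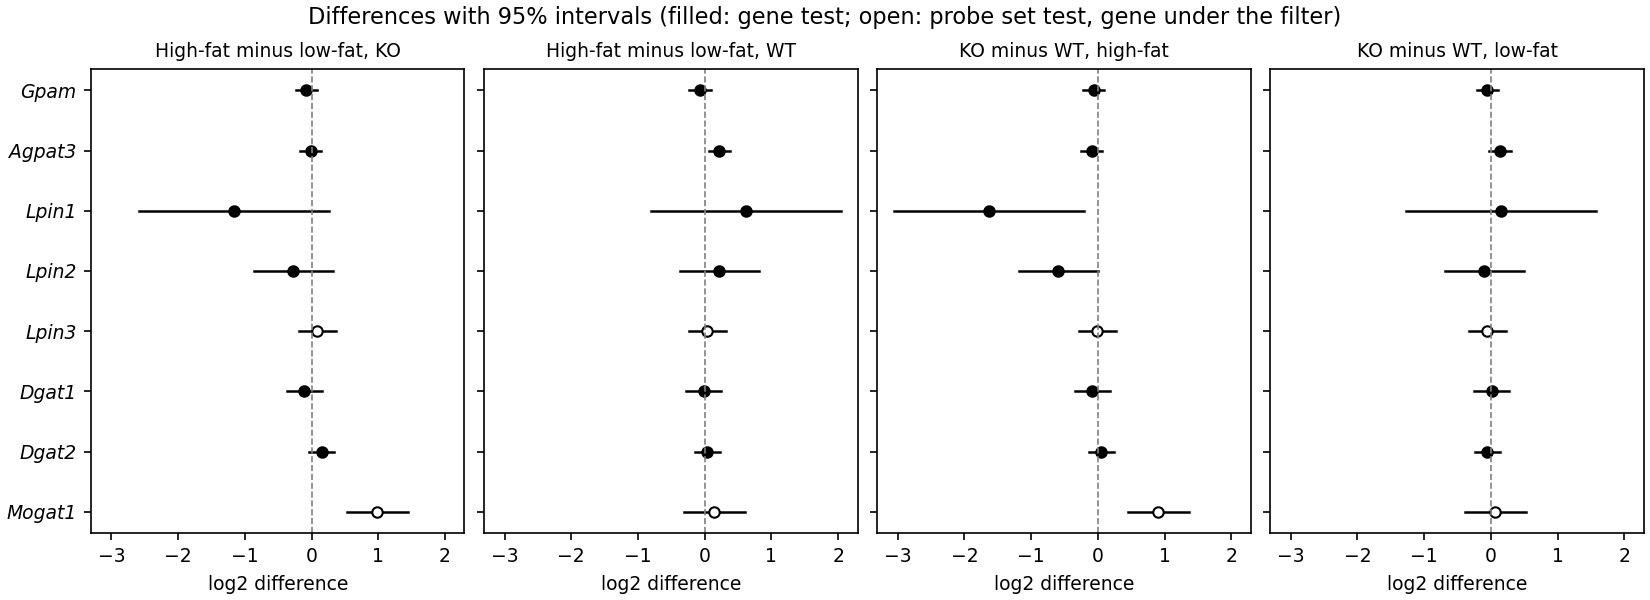
Log2 differences with 95% intervals for each member, for diet in each genotype and for genotype on each diet, with high-fat minus low-fat and knockout minus wild type as the direction. Filled points are from the test of genes and open points, for Lpin3 and Mogat1, from the test of all probe sets; the unadjusted intervals clear 0 for Mogat1 for diet in knockout livers (0.98) and for genotype on the high-fat diet (0.91), for Lpin1 for genotype on the high-fat diet (-1.63) and for Agpat3 for diet in wild-type livers (0.22).

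The rest of the pathway was read from 7 lists of 87 genes: relatives of the members, glycerol 3-phosphate supply, fatty acid activation, branches from phosphatidate and diacylglycerol to phospholipids, triglyceride breakdown, very-low-density lipoprotein assembly and regulators. Of the 64 that were tested, 2 rose and 2 fell with the high-fat diet in knockout livers, 6.25% against 3.03% of all genes. Averaged over genotypes 3 rose and 6 fell, 14.1% against 4.56% of all genes, and none passed in the other 5 comparisons. Markers of other cells were counted as well, and no macrophage, stellate or endothelial marker passed for diet. Of the pancreas list, with 3 genes tested, Cela1 passed as higher for diet over both genotypes. Its means were 9.78 in knockout high-fat and 9.48 in knockout low-fat livers, and 9.69 and 9.37 in wild-type livers. Of 9 tested hepatocyte markers, Hnf4a passed as lower for diet in knockout livers, with means of 10.93 on the high-fat and 11.32 on the low-fat diet. Over both genotypes 11 of 11 tested macrophage markers (median 0.37) and 5 of 5 stellate cell markers (median 0.22) had a positive difference. Of the tested endothelial markers 2 of 11 did (median -0.13), against 48.8% of all genes. For knockout minus wild type on average, the counts were 3 of 11, 1 of 5 and 0 of 11 in the same order. Of all genes 52.2% were positive there, and the endothelial median was -0.30. The part of these cells in the changes of the pathway genes was not tested.

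The genes that fell with the high-fat diet over both genotypes lie at different points around the assembly line. Acsl5, a ligase that activates fatty acids to acyl-CoA, fell by 0.38 (SE 0.07, adjusted p = 0.0067), and Dbi, which binds and carries acyl-CoA, fell by 0.35 (SE 0.05, adjusted p = 0.00405). Acsl5 read 10.69, 10.67 and 10.52 in knockout high-fat and 11.11, 10.78 and 11.07 in knockout low-fat livers, and 10.74, 10.60 and 10.65 in wild-type high-fat and 11.15, 11.14 and 10.92 in wild-type low-fat livers, with no overlap between diets. Tm6sf2, needed to load lipid onto very-low-density lipoproteins, fell by 0.68 (SE 0.17, adjusted p = 0.0405). Insig1, which holds the SREBP precursors in the endoplasmic reticulum, fell by 0.45 (SE 0.09, adjusted p = 0.0184). Aadac, a lipase-like hydrolase, and Etnk1, the ethanolamine kinase of phosphatidylethanolamine synthesis, fell by 0.19 and 0.22 (adjusted p = 0.0442 and 0.0475).

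Besides Gpat3, the genes that rose over both genotypes were Slc27a2, a fatty acid transporter and very-long-chain acyl-CoA synthetase, by 0.21 (SE 0.03, adjusted p = 0.00583), and Chpt1, which turns diacylglycerol into phosphatidylcholine, by 0.28 (SE 0.06, adjusted p = 0.0209). In knockout livers alone Gpat3 and Slc27a2 rose, and Dbi and Etnk1 fell. All 4 of these calls were lost in the fit without knockout high-fat array 3 and knockout low-fat array 2, with adjusted p of 0.0668 to 0.186. That fit also has fewer arrays, and the 2 reasons for a lost call cannot be told apart there. Over all alternatives, this fit among them, the knockout differences kept their sign. They ran from 0.84 to 0.94 for Gpat3, 0.18 to 0.26 for Slc27a2, -0.38 to -0.25 for Dbi and -0.41 to -0.23 for Etnk1. Over both genotypes Chpt1, Etnk1 and Aadac lost theirs in the same fit, and the other 6 kept theirs. Over all 24 alternatives Acsl5, Dbi, Gpat3 and Slc27a2 passed in each, Insig1 in 23 and Chpt1 in 18, while Tm6sf2 passed in 11, Etnk1 in 8 and Aadac in 7. In knockout livers Gpat3 passed in 24 of 25 alternatives, Slc27a2 in 14, Dbi in 11 and Etnk1 in 10. Medians of the 7 lists for diet over both genotypes lay between -0.12 and 0.04, against -0.0036 for all genes tested.

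Likeness to the members was measured as the root mean square difference between 2 genes over the 12 arrays, with each gene centred on its own mean. As no member passed, it was taken for the 2 members with the smallest p for diet over both genotypes among the 6 in the test of genes, Agpat3 and Dgat2. The nearest genes to Agpat3 were Tmem234 (0.0504), Phyh (0.0569) and F5 (0.0598), where Agpat3 itself had an SD of 0.098 over the arrays. The nearest to Dgat2 were Unk (0.0457), Hp (0.0738) and Lcat (0.0793), where Dgat2 had an SD of 0.114.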

How the data were processed

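Total RNA of mouse liver was extracted with Trizol and hybridised to 12 Affymetrix PM arrays per the labels' protocols, 1 extract per array and 3 arrays per group. The authors deposited a log2 signal for each of 45141 probe sets, from RMA of unstated version (per the submitters' processing notes). This method normally equalises the distributions of arrays, which hides a shift of all genes, and it compresses changes of dim probe sets such as those of Mogat1 and Lpin3. Array medians lay between 3.94 and 4.00, and nothing was rescaled.

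After 104 control probe sets were set aside, 28898 probe sets had 1 gene in the platform annotation, 551 several and 15588 none. The brightest probe set stood for a gene, and the 40% of 17097 genes with the lowest mean were left out, which left 10258 genes. Means of the 4 groups were fitted with limma 3.58.1 in R 4.3.3 (8 residual degrees of freedom, variance trend), with Benjamini-Hochberg adjusted p at 0.05 over all genes of a comparison and no correction across the 7 comparisons. A second limma fit held all 45037 probe sets that are not controls. Values after ± are SD, and SE and 95% intervals are limma's. The script was tested on simulated data.

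The members, the lists and the tests were chosen with earlier results of these data known. Named genes were the members with all their probe sets, Pml, and genes of the pathway lists that passed or belong to a member's enzyme family; likeness lists were made for members that passed or, failing that, the 2 with the smallest p for diet over both genotypes in the test of genes. Sequences and gene positions are from RefSeq (GRCm38.p6), matched by symbol. The lists' alternatives were quantile normalization, median centring, filters, the mean of probe sets, robust variance, no trend, array weights, the replicate number as a block, 2 groups alone, a limit of 0.10 on the adjusted p, and each array in turn left out; a fit without 2 arrays, the glucocorticoid list and the motif search were added after seeing the data.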

Additional observations from a re-analysis of the deposited data

How the results depend on the processing

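In 25 alternative settings, 12 of them with 1 array left out, the count of members passing the test of genes stayed at 0 in 7 comparisons, apart from diet in knockout livers: there it was 1 with no filter on dim genes and 1 with probe sets averaged by gene. Among the 14 member probe sets 1 passed at an adjusted p of 0.10, and 0 to 1 passed as single arrays were left out, with 1 without knockout high-fat array 3. Each of these calls was Mogat1 for diet in knockout livers, whose adjusted p ran from 0.0421 to 0.226. Of 1341 alternative values for 56 member differences, 73 changed sign, none of them a called value, and the largest main value among them was 0.61, that of Lpin1 for diet in wild-type livers. With the replicate number as a block, 0 members passed in every comparison and Mogat1 had an adjusted p of 0.081. Between same-numbered arrays, 7 of 18 correlations were over 0.1, in a range from -0.166 to 0.381. Knockout high-fat and knockout low-fat arrays gave 0.381 for number 1, 0.311 for number 2 and -0.043 for number 3. Arrays with different numbers were not compared, so this check cannot decide whether equal numbers pair the samples. Over all genes the number passing for diet in wild-type livers was 18, and 109 with array weights and 5 to 39 as single arrays were left out. In knockout livers it was 311, and 68 in a fit of those 2 groups alone, 655 at an adjusted p of 0.10, and 71 to 461 as single arrays were left out. Over both genotypes it was 468, and 258 without knockout high-fat array 3 and knockout low-fat array 2, and 921 at an adjusted p of 0.10. The fit of 2 groups alone was not run for averages and the difference between diet effects, which need all 4 groups. The cause of these changes was not tested, beyond fewer samples or more genes in a fit. Low signal limits Mogat1, Lpin3 and the second Dgat1 probe set.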

Other observations

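The nearest genes to Lpin1, Lpin2 and Mogat1 by the same root mean square difference were looked up after their values were seen. For Lpin1 they were Pfkfb3 (0.323), which makes an activator of glycolysis, Zbtb16 (0.429) and Ppp1r3c (0.459), a subunit that targets protein phosphatase to glycogen, where Lpin1 had an SD of 1.05 over the 12 arrays. The nearest to Lpin2 were Herpud1 (0.136), a gene of the endoplasmic reticulum stress response, Gin1 (0.146) and Ip6k2 (0.158), with an SD of 0.416 for Lpin2. For Mogat1 they were Ifi27l2b (0.255), 4930412F09Rik (0.281) and the carboxylesterase Ces1g (0.295), with an SD of 0.524 for Mogat1.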
